A study of Mus musculus with 6 samples.

Results

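The Polycomb complex genes examined here are 10 genes chosen by name. They encode 5 subunits of Polycomb repressive complex 2 (PRC2: Ezh1, Ezh2, Eed, Suz12 and Jarid2) and 5 of Polycomb repressive complex 1 (PRC1: Bmi1, Cbx2, Cbx7, Ring1 and Rnf2). All 10 were found among the 19893 gene symbols present in every table, and all 10 were among the 13844 genes tested. For each symbol the transcript with the highest mean count was used.

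RNA was sequenced from spheres of MMTV-HER2/Neu mice on the FvB background, whose Neu (ErbB2) oncogene is driven by the promoter of mouse mammary tumour virus, active in mammary epithelium. Both groups carry the transgene. The 3 early lesion (EL) libraries came from mammary glands of mice aged 14 to 18 weeks with no palpable tumour, and the 3 primary tumour (PT) libraries from tumours of mice older than 20 weeks. Digested cells of both kinds grew for 7 days in mammosphere medium on plates to which they do not attach. Nothing in the labels says that libraries came from separate animals, and every p-value here rests on library-to-library spread, possibly of technical origin only.

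Polycomb proteins keep genes silent through histone marks. PRC2 places methyl groups on H3K27 with either of its catalytic paralogs, Ezh2 or Ezh1, held in the complex by Suz12 and Eed. PRC1 adds ubiquitin to histone H2A through the RING finger ligases Ring1 or Rnf2, and its canonical form reads the PRC2 mark with a chromobox (Cbx) protein and contains a partner such as Bmi1. In the mammary gland, Ezh2 and Bmi1 are known for their part in progenitor cell growth and in silencing of the Cdkn2a locus.

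Between 69759793 and 85126630 counts, summed over transcript rows, were deposited per library, the lowest of them in the incomplete table of EL replicate 1. The quasi-likelihood test of edgeR, with Benjamini-Hochberg adjustment over all tested genes and a threshold of 0.05, called 80.7% of all genes, 39.9% higher and 40.8% lower in PT, so a call by itself sets no gene apart here. Markers of several cell types moved with the comparison. Of 10 fibroblast markers all fell, from a summed 69951 to 73794 CPM (counts divided by the TMM-scaled library size) in EL to 1559 to 1648 CPM in PT. All 10 endothelial markers were lower as well (269 to 290 against 11.3 to 12.4 CPM). All 10 epithelial markers were higher in PT (2563 to 2619 against 8850 to 9232 CPM), and so were 8 of 9 macrophage markers (315 to 332 against 663 to 684 CPM). Most of the macrophage sum was Cd14, with means of 240 CPM in EL and 481 CPM in PT, and Csf1r was the marker that did not pass. Some markers, such as Cldn5 and Cx3cr1, passed the count filter through 1 group alone and so had to differ. Fewer cells of a type and less RNA per cell cannot be told apart in such bulk libraries, and the part of this shift in the values below was not tested. Adipocyte markers summed to 25.1 to 29.2 CPM in EL and 3.02 to 3.50 CPM in PT, and lymphocyte markers to 6.83 to 11.5 and 10.8 to 13.7 CPM. Most of the adipocyte sum was Fabp4, with means of 22.4 CPM in EL and 2.33 CPM in PT. Besides Fabp4 only Pparg was high enough to test among the 6 adipocyte markers. Most of the lymphocyte sum was Ptprc (8.31 and 12.5 CPM), the only marker of that list tested. Lung is named beside mammary in the EL tissue field. Of 10 lung epithelium genes, Sftpa1, Scgb1a1, Scgb3a2 and Nkx2-1 had 0 counts in all 6 libraries Sftpb had at most 1 count in a library and Sftpc reached at most 0.215 CPM, while Sftpd and Foxj1 were higher in PT and Aqp5 and Ager were detected in both groups without passing the test. The list summed to 130 to 144 CPM in EL and 242 to 249 CPM in PT.

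In PT spheres 6 of the 10 Polycomb genes were higher, 2 were lower and 2 did not pass the test, beside 39.9% of all genes higher and 40.8% lower. The largest differences were in the 2 chromobox genes and in Ezh1, which rose between 1.80-fold and 2.38-fold. Jarid2 and Rnf2 fell, and Ezh2 and Eed did not pass. For 8 of the 10 the EL and PT libraries were apart without overlap, 6 with PT above EL (41% of all genes) and 2 with PT below EL (41.7%). The median log2 fold change (PT minus EL) of the 10 genes was 0.18, against 0.00 over all genes tested. One of the 10, Cbx7, was called and changed over 2-fold, against 9.43% of all genes higher and 19.4% lower by that measure.

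**Figure D1:**
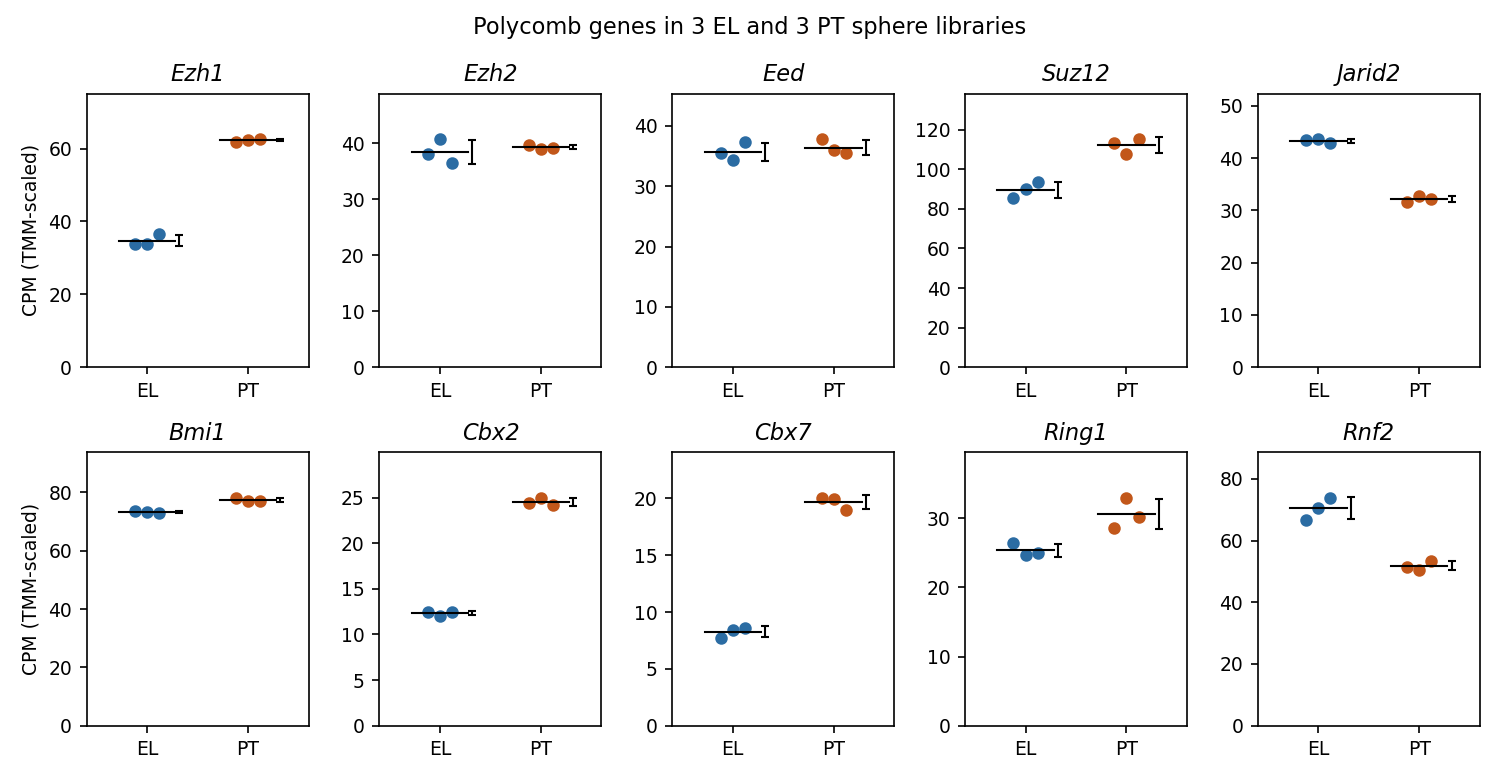
CPM of each Polycomb gene, scaled by TMM factors, in the 3 EL (blue) and 3 PT (orange) libraries; each panel starts at 0 on its own axis, horizontal lines are means and bars are SD. The groups are apart for 8 genes, and the points of Ezh2 and Eed overlap.

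The stretches before the transcription starts of 4 Polycomb genes are shown because these genes moved differently: Ezh1, Suz12 and Ring1 rose and Rnf2 fell. The sequences are the 250 bases before the start, from RefSeq in the GRCm38.p6 build, written 5′ to 3′ on the gene's strand, and none of the 4 overlaps an annotated exon. Capitals mark the letters of 3 kinds of motif, each searched on both strands, and no marked words overlap in these 4 windows. The GC box, a site of Sp factors, was searched as GGGCGG. The box bound by NF-Y was searched as its name says, as CCAAT. The words searched for E2F factors were TTTGGCGC, TTTCGCGC, TTTCCCGC and TTTGCCGC.
Ezh1, chr11:101226464-101226713, minus strand: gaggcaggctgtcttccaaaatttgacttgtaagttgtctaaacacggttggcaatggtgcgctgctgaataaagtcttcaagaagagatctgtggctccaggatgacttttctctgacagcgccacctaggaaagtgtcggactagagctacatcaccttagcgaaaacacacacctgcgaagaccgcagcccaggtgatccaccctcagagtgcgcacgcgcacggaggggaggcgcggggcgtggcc
Suz12, chr11:79992856-79993105, plus strand: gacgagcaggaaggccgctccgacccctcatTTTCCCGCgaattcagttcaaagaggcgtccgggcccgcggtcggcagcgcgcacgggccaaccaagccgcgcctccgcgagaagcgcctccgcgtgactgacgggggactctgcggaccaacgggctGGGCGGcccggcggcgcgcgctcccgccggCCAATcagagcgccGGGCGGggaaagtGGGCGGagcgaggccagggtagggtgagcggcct
Ring1, chr17:34024681-34024930, minus strand: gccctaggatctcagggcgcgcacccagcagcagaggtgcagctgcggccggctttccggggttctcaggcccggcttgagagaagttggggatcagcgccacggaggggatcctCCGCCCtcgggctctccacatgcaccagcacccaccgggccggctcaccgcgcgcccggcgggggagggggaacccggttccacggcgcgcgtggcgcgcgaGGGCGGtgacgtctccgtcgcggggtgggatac
Rnf2, chr1:151500992-151501241, minus strand: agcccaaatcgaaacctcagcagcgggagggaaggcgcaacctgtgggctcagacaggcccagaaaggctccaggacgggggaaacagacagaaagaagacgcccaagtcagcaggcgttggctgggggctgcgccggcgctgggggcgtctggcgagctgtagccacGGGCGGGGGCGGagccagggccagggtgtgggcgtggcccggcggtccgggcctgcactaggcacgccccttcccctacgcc
Starts of 9 of the 10 genes were in the table. The window of Suz12 held an E2F word, 219 bases before the start, with a CCAAT box and 3 GC boxes closer to it. Of all 32851 such windows 1.86% held an E2F word, 33.8% a CCAAT box and 32.7% a GC box. Of the 9 genes, 1 had an E2F word, 4 a CCAAT box and 6 a GC box in at least 1 window. These counts are of genes while the shares are of windows, and a difference between them was not tested. The windows of Ring1 and Rnf2 each held 2 GC boxes although these genes went opposite ways, and that of Ezh1 held none of the words. Ezh1 had 14 CpG dinucleotides in its 250 bases, Rnf2 20, Ring1 30 and Suz12 37.

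Among the PRC2 enzymes, Ezh1, the paralog that prevails in cells that have stopped dividing, stood at 33.9, 33.7 and 36.4 CPM in EL replicates 1 to 3 and at 61.9, 62.3 and 62.6 CPM in PT replicates 1 to 3. Every PT library lay above every EL library. The rise was 1.80-fold (log2 fold change of 0.84 with SE 0.04, edgeR adjusted p = 3.30e-10). Ezh2, the paralog abundant in dividing cells, was measured at 38.0, 40.7 and 36.4 CPM in EL and at 39.6, 39.0 and 39.2 CPM in PT. The 3 PT values lay inside the EL range. Its log2 fold change was 0.03 (95% interval -0.06 to 0.12; adjusted p = 0.522 by edgeR), so a change of the size seen for Ezh1 lay outside the interval. When library totals replaced the TMM factors, the values of all genes shifted up by a median of 0.25, and Ezh2 passed at 0.28, close to that shift.

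The balance between the paralogs does not depend on how libraries are scaled. The count ratio of Ezh2 to Ezh1 was 1.12, 1.21 and 0.999 in the EL libraries and 0.640, 0.625 and 0.626 in the PT libraries. All PT ratios lay below all EL ratios, a mean difference of -0.81 on the log2 scale (exact two-sided permutation p = 0.1 over 3 libraries against 3, the smallest this design allows; 0.1 after adjustment over 6 ratios). Per length of transcript, Ezh1 made up 37.5% ± 2.25 of the pair in EL and 51.2% ± 0.331 in PT (both SD, n = 3).

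The PRC2 scaffold genes differed from each other. Suz12, which holds the core of PRC2 together, was at 85.5, 90.05 and 93.6 CPM in EL and at 114, 108 and 115 CPM in PT, with no overlap (log2 fold change of 0.32 with SE 0.04, edgeR adjusted p = 6.74e-06). Eed, which binds the trimethylated lysine and stimulates the enzyme, was at 35.5, 34.3 and 37.3 CPM in EL and at 37.8, 36.0 and 35.4 CPM in PT. These ranges overlap. The log2 fold change of Eed was 0.03 (95% interval -0.06 to 0.12; adjusted p = 0.583 by edgeR), and 0.27 with library totals, where it passed. The ratio of Suz12 to Eed counts was 2.41, 2.62 and 2.51 in EL and 3.00, 3.00 and 3.25 in PT, so these partners did not keep 1 proportion (difference 0.30 on the log2 scale; exact permutation p = 0.1).

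Jarid2, an accessory subunit that helps to bring PRC2 to its sites, fell in PT. It was at 43.4, 43.7 and 43.0 CPM in EL and at 31.6, 32.7 and 32.1 CPM in PT, a narrow spread within each group and no overlap (log2 fold change of -0.43 with SE 0.04, edgeR adjusted p = 2.22e-07). Its ratio to Suz12 went from 0.508, 0.485 and 0.459 in EL to 0.279, 0.303 and 0.279 in PT, a difference of -0.75 on the log2 scale (exact permutation p = 0.1). Of the 3 Jarid2 transcripts in the tables, NM_001205043 held 53, 51 and 62 more counts than the other two in EL and 38, 53 and 40 more in PT, so nearly all Jarid2 counts were common to its transcripts. The 2 Ezh2 transcripts held equal counts in every library.

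Among the PRC1 genes, both chromobox members rose. Cbx7, a chromobox protein known from stem and differentiated cells, was at 7.71, 8.43 and 8.62 CPM in EL and at 20.1, 19.9 and 18.9 CPM in PT. Every PT value was more than 2 times every EL value. Its rise of 2.38-fold was the highest of the 10 genes (log2 fold change of 1.25 with SE 0.06, edgeR adjusted p = 8.52e-10). Cbx2, known for compacting chromatin and for its role in gonadal development, was at 12.5, 12.1 and 12.4 CPM in EL and at 24.4, 24.9999 and 24.2 CPM in PT (log2 fold change of 0.99 with SE 0.05, edgeR adjusted p = 8.21e-10). The EL and PT libraries were apart for this gene too. The ratio of Cbx7 to Cbx2 counts moved less, from 0.617, 0.700 and 0.695 to 0.822, 0.798 and 0.784 (difference 0.26 on the log2 scale; exact permutation p = 0.1).

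Shares among 4 chromobox genes of canonical PRC1 (Cbx2, Cbx6, Cbx7 and Cbx8) put these rises in proportion. Per length of transcript, Cbx6 was the most abundant of the 4 in both groups, yet its share of the 4 went from 68.3% ± 0.700 in EL to 55.5% ± 0.608 in PT (both SD, n = 3). The share of Cbx7 went from 11.1% ± 0.668 to 18.5% ± 0.541 and that of Cbx2 from 12.6% ± 0.125 to 17.6% ± 0.145. Cbx8 held 8.09% ± 0.266 in EL and 8.42% ± 0.320 in PT. Thus a larger part of these transcripts came from Cbx7 and Cbx2 in PT, although all 4 genes passed the test as higher.

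The RING finger ligases went opposite ways. Rnf2, also called Ring1b and the more active ligase in many cells, was at 66.8, 70.7 and 74.0 CPM in EL and at 51.6, 50.6 and 53.6 CPM in PT (log2 fold change of -0.44 with SE 0.04, edgeR adjusted p = 5.71e-07). Its paralog Ring1 was at 26.4, 24.7 and 24.96 CPM in EL and at 28.7, 33.0 and 30.2 CPM in PT (log2 fold change of 0.27 with SE 0.06, edgeR adjusted p = 6.65e-04). Neither gene had overlapping groups, and PT replicate 2 held the highest Ring1 and the lowest Rnf2 value of its group. The ratio of Rnf2 to Ring1 counts was 2.53, 2.85 and 2.96 in EL and 1.80, 1.53 and 1.77 in PT (difference -0.71 on the log2 scale; exact permutation p = 0.1). Per length, Rnf2 made up 64.1% ± 1.92 of the pair in EL and 52.2% ± 2.22 in PT (both SD, n = 3).

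Bmi1, the PRC1 partner best known for repressing Cdkn2a, stood at 73.5, 73.4 and 72.8 CPM in EL and at 78.2, 77.1 and 77.1 CPM in PT. The groups did not overlap, as for 82.7% of all genes. The difference was small (log2 fold change of 0.08 with SE 0.03, edgeR adjusted p = 0.0282). It missed the threshold with RLE factors (adjusted p = 0.0504), with DESeq2 (0.125), with genes below a mean count of 50 left out (0.0560) and without any 1 library other than EL replicate 1 (0.0510 to 0.0829). The Bmi1 to Rnf2 ratio lay above its EL range in every PT library, going from 1.10, 1.04 and 0.985 to 1.52, 1.52 and 1.44 (difference 0.52 on the log2 scale; exact permutation p = 0.1). Pcgf2, its paralog, was measured at 48.9 ± 1.90 and 48.5 ± 1.23 CPM (both SD, n = 3; adjusted p = 0.779 by edgeR).

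**Figure D2:**
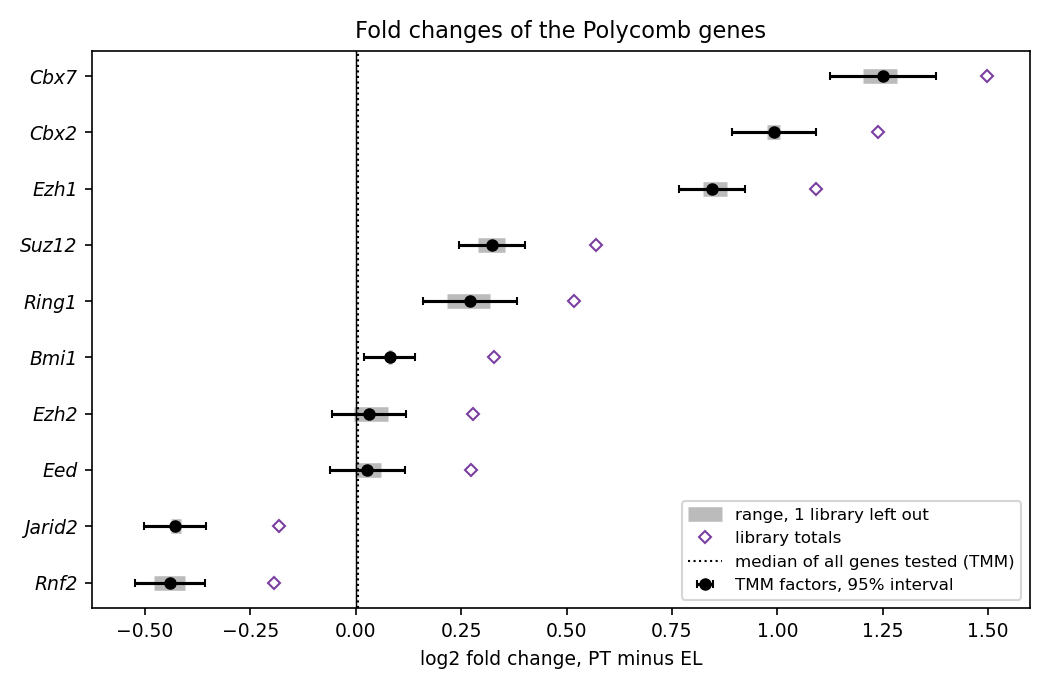
Log2 fold change (PT minus EL) of each Polycomb gene with its 95% interval (black), the range with 1 library left out (grey) and the value with library totals (purple). Cbx7, Cbx2 and Ezh1 lie at 0.84 to 1.25, and with library totals every value moves up by about 0.25 while Jarid2 and Rnf2 stay below 0.

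**Figure D3:**
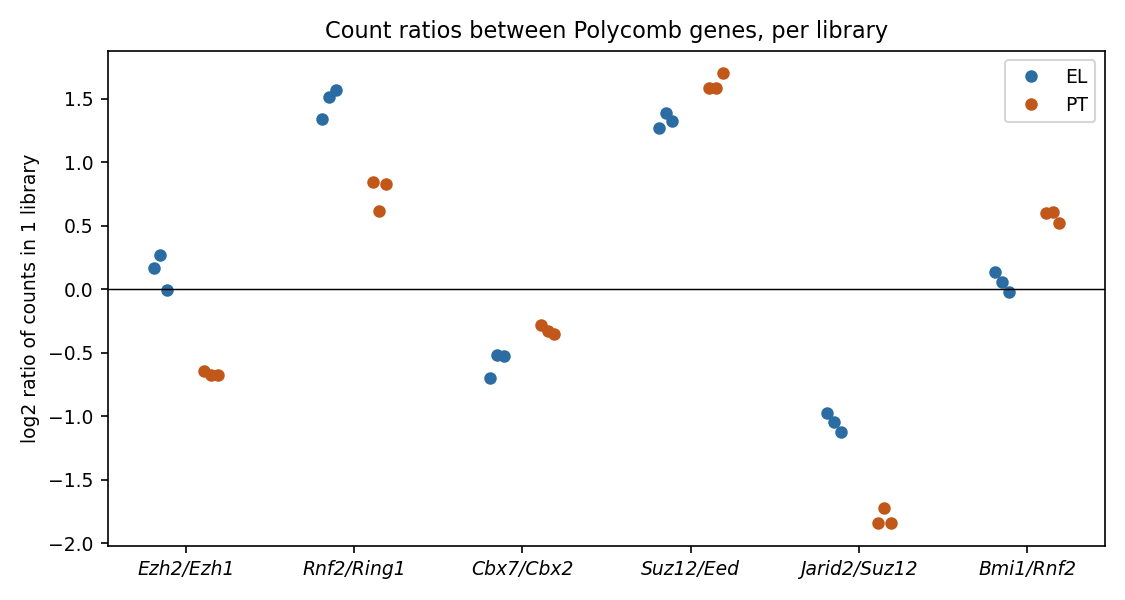
Log2 of the count ratio of 6 pairs of Polycomb genes in each library, EL in blue and PT in orange. The groups are apart for all 6 pairs, with Ezh2/Ezh1, Rnf2/Ring1 and Jarid2/Suz12 lower in PT and the other 3 higher.

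Levels of different genes were compared as CPM per kilobase of transcript. In EL the order from the top was Rnf2 (22.3 ± 1.13), Suz12 (20.9 ± 0.948), Bmi1 (20.4 ± 0.101), Eed (17.3 ± 0.720), Ezh2 (13.8 ± 0.789), Ring1 (12.5 ± 0.450), Ezh1 (8.27 ± 0.363), Jarid2 (7.23 ± 0.0574), Cbx2 (3.24 ± 0.0613) and Cbx7 (2.85 ± 0.165; SD, n = 3 each). The library values of Rnf2 and Suz12, and of Suz12 and Bmi1, overlapped, and the other neighbours did not. In PT, Suz12 led (26.1 ± 0.898), followed by Bmi1 (21.5 ± 0.182), Eed (17.6 ± 0.604) and Rnf2 (16.4 ± 0.478). Ring1 (15.1 ± 1.08), Ezh1 (14.9 ± 0.0812) and Ezh2 (14.1 ± 0.123) came next, and Cbx7 (6.78 ± 0.214), Cbx2 (6.44 ± 0.113) and Jarid2 (5.37 ± 0.0906) last. Here Rnf2 and Ring1, Ring1 and Ezh1, and Cbx7 and Cbx2 overlapped as neighbours. Rnf2 thus went from the first to the fourth place, and Ezh1 from below Ezh2 to above it.

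**Figure D4:**
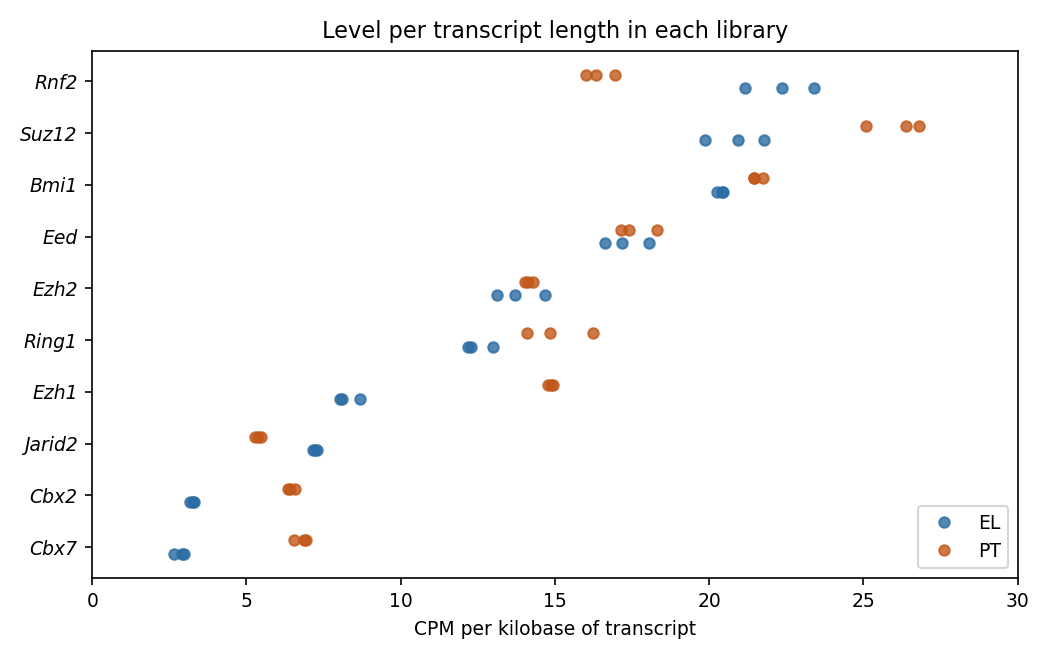
CPM per kilobase of transcript of the 10 Polycomb genes in each of the 3 EL (blue) and 3 PT (orange) libraries, ordered by the EL mean. Rnf2 is highest in EL and Suz12 in PT, and Cbx2 and Cbx7 lie below 7 in every library.

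The exons of 5 of the 10 genes overlap a gene on the opposite strand in the GENCODE M21 annotation, by 100 bases for Cbx7 (with Apobec3) up to 261 bases for Eed (with E230029C05Rik). No strand setting is given for the counts, so reads there cannot be told apart. The genes lie on chromosome 11 (Ezh1, 101191115 to 101226463; Suz12, 79993106 to 80034123; Cbx2, 119023019 to 119031275), chromosome 6 (Ezh2, 47530274 to 47595270), chromosome 7 (Eed, 89954654 to 89980976), chromosome 13 (Jarid2, 44730774 to 44921643), chromosome 2 (Bmi1, 18677018 to 18686629), chromosome 15 (Cbx7, 79915804 to 79971143), chromosome 17 (Ring1, 34020792 to 34024680) and chromosome 1 (Rnf2, 151469398 to 151500991) of GRCm38.

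Other Polycomb and counteracting genes were described from lists drawn on textbook knowledge. Of 58 tested genes in 6 lists, 36 passed as higher and 8 as lower in PT, while 39.9% of all genes tested were higher and 40.8% lower. The median log2 fold change of the 58 was 0.20, against 0.00 over all genes. With library totals 49 were higher and 5 lower, beside 7911 higher and 4111 lower of all 13844 genes tested. Of all called genes 65.8% were then higher, instead of 49.5%. Counts for the single lists, here and below, are to be read beside the shares of all genes. With TMM factors 39.9% of all genes were higher and 40.8% lower. The accessory subunits of PRC2 were higher in 4 of 8 cases, and 4 did not pass. E130012A19Rik (Epop), an elongin-binding subunit, rose from 9.11 ± 0.618 to 19.1 ± 0.582 CPM (both SD, n = 3), the histone-binding Rbbp4 from 228 ± 2.77 to 284 ± 2.73 CPM, the Polycomb-like Phf1 from 38.2 ± 1.94 to 53.1 ± 1.22 CPM, and Lcor from 4.69 ± 0.739 to 7.36 ± 0.602 CPM. With library totals 7 of the 8 passed as higher, beside 7911 of all 13844 genes tested.

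Of the other canonical PRC1 subunits 7 of 10 rose and 1 fell. The polyhomeotic genes rose, Phc3 from 59.8 ± 2.90 to 104 ± 2.29 and Phc2 from 232 ± 6.56 to 307 ± 7.67 CPM, and Scml4 fell from 23.6 ± 0.982 to 15.4 ± 0.219 CPM (both SD, n = 3). In variant PRC1, which uses Rybp or Yaf2 instead of a Cbx protein, 10 of 16 tested genes were higher and 3 lower. Rybp rose by 0.55 (SE 0.05), the CpG island reader Kdm2b by 0.53 (SE 0.04), Pcgf5 by 0.77 (SE 0.06) and Skp1a by 0.55 (SE 0.03) on the log2 scale. Yaf2, the paralog of Rybp and named after its value was seen, had a log2 fold change of -0.52 (SE 0.05). As with Ring1 and Rnf2, 1 paralog of this pair was higher and the other lower in PT, also with library totals. Other paralogs moved the same way: Phc2 and Phc3 were both higher, and so were Cbx2, Cbx6, Cbx7 and Cbx8. Pcgf1, which is absent from the incomplete table, was at 9.61 CPM over 2 EL libraries and 8.84 CPM over 3 PT libraries (log2 fold change of -0.12 with SE 0.08, edgeR adjusted p = 0.164).

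Enzymes that remove the Polycomb marks, and their partner proteins, were described next. Of the PR-DUB list, whose core removes ubiquitin from H2A, 6 of 10 tested genes were higher and 3 lower. The gene that did not pass was Bap1, the deubiquitinase itself, named after its value was seen. It was at 85.5 ± 4.09 CPM in EL and 84.9 ± 1.19 CPM in PT (both SD, n = 3, adjusted p = 0.795 by edgeR). Kdm1b and Ogt were higher, with log2 fold changes of 0.49 (SE 0.04) for the first and 0.36 (SE 0.03) for the second, and Foxk2 was lower at -0.37 (SE 0.04). Asxl3, counted among the 3 lower, stood at 0.982, 1.64 and 1.32 CPM in EL and at 0, 0 and 0.0539 CPM in PT. It passed the count filter through its EL level alone and so had to differ, and its values are a description with no test. Foxk1, tested in the 5 complete libraries, had a log2 fold change of -0.21 (SE 0.03; adjusted p = 1.64e-06 by edgeR). Of the H3K27 demethylases, Kdm6a rose from 67.1 ± 1.02 to 89.8 ± 0.692 CPM, and Kdm6b was at 110 ± 5.11 and 113 ± 2.85 CPM (both SD, n = 3; adjusted p = 0.472 by edgeR). In the Trithorax and COMPASS list, whose complexes act against Polycomb silencing, 8 of 12 were higher and 1 lower. Log2 fold changes were 0.40 (SE 0.04) for Kmt2b, 0.55 (SE 0.05) for Dpy30 and 0.35 (SE 0.03) for Ash2l, and the member that fell, Men1 (-0.28, SE 0.03), did not pass with library totals.

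**Figure D5:**
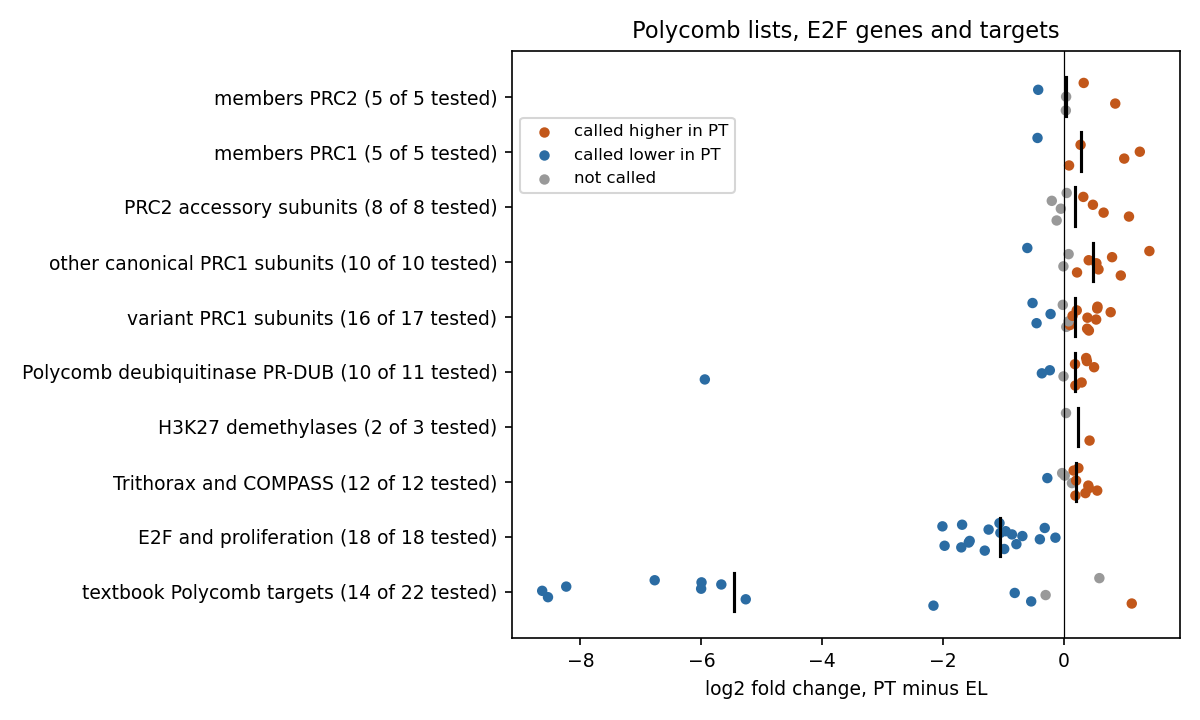
Log2 fold change (PT minus EL) of every tested gene in the Polycomb lists, the E2F and proliferation list and the target list; colours give the edgeR call and black bars the list medians. Most Polycomb genes lie within 1 of 0, all 18 E2F and proliferation genes are called lower, and 9 of the 14 tested targets lie below -1. Several of these 9 targets passed the count filter through their EL level alone and so had to differ.

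Ezh2 and Eed are textbook targets of E2F factors, so their values were set beside a list of 18 E2F and proliferation genes. All 18 were lower in PT, beside 40.8% of all genes tested. Their median log2 fold change was -1.06, with a summed level of 706 to 776 CPM in EL and 360 to 374 CPM in PT. With library totals 15 were lower and 1 higher, E2f3, named after its value was seen (-0.14 with TMM factors and 0.10 with library totals). Of all 13844 genes tested, 4111 were lower and 7911 higher with library totals. Top2a fell from 88.0 ± 6.15 to 27.3 ± 1.27 CPM, E2f1 from 47.2 ± 2.13 to 15.97 ± 0.804, Rrm2 from 46.0 ± 5.10 to 11.4 ± 0.0995 and Mki67 from 63.3 ± 3.17 to 26.6 ± 1.75 CPM (both SD, n = 3). The 95% intervals of Ezh2 and Eed, both -0.06 to 0.12, thus lay above the log2 fold changes of all 18 genes, of which the highest was -0.14.

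Textbook targets of Polycomb silencing were mostly lower in PT or barely detected. Of 22 listed genes 14 were tested, and 11 of these were lower and 1 higher, beside 40.8% and 39.9% of all genes tested. Several of the 11, among them Hoxc10, Hoxa10 and Hoxb4, passed the count filter through their EL level alone and so had to differ. The count of 11 is therefore a description and not a test. A further 8 genes, among them Pax6, Olig2 and Gata4, were too low to test in either group. Hoxc10 went from 30.8 ± 1.24 to 0.1004 ± 0.0321 CPM, Hoxc6 from 15.4 ± 0.343 to 0.301 ± 0.0834, Hoxa10 from 12.6 ± 0.996 to 0.0304 ± 0.0276 and Hoxb4 from 9.37 ± 0.269 to 0.144 ± 0.0160 CPM (both SD, n = 3). Markers of fibroblasts and of endothelial cells had medians of -6.39 and -5.67 on the same log2 scale, and their part in these values was not tested. The INK4 locus was split. Cdkn2a, the gene that rose, went from 6.52 ± 0.378 to 14.1 ± 1.44 CPM (a log2 fold change of 1.12 with SE 0.09), and its neighbour Cdkn2b was at -0.55 (SE 0.06); both were named after their values were seen.

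Over the 12491 other tested genes with a mean count of at least 50, the patterns nearest to that of Cbx7 were those of Stx3, Zc2hc1a and Cpe, with root-mean-square differences of centred log2 CPM over the 6 libraries of 0.0271, 0.0333 and 0.0339. Those nearest to Rnf2, which had the lowest log2 fold change of the 10, were Plcb4, Vamp3 and Stt3b, at 0.0212, 0.0224 and 0.0230. With 2 groups of close libraries, such likeness rests mainly on a similar fold change.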

How the data were processed

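Polyadenylated RNA of 3 EL and 3 PT sphere cultures was read on an Illumina MiSeq, per the labels' protocols. The authors deposited raw whole-number counts per RefSeq transcript; STAR, featureCounts, DESeq2, mm10 and hg19 are named in the submitters' processing notes, and the sources used here do not state their versions, parameters or strand setting. The table of EL replicate 1 breaks off after 27664 of 33068 rows, so rows present in all 6 tables were used, with 1 transcript per symbol (the highest mean count). Genes passing filterByExpr were scaled by TMM factors (0.914 to 0.922 in EL, 1.09 in PT) and tested with the quasi-likelihood test of edgeR 4.0.16 in R 4.3.3, Benjamini-Hochberg adjusted over 13844 genes. CPM use the TMM-scaled totals. SE is the log2 fold change divided by the root of the F statistic, and 95% intervals are normal. Count ratios have 0.5 added to each count. Lengths come from GENCODE M21 transcripts matched by RefSeq accession (10 of 10 members). The script was tested on simulated data in which most genes did not change, unlike here, so that test says nothing on the choice of scaling.

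Members and lists were chosen with earlier results of these data known. Named genes are the 10 members and, from each list, up to 4 with the smallest p-value. The values of 1 gene of that rule are not reported here. Depth limits genes with few counts most. As alternatives served library totals, upper-quartile and RLE factors, DESeq2 1.42.0, limma-voom (limma 3.58.1), other filters, another transcript per symbol, the 5 complete libraries, thinned counts, a replicate block and each library left out.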

Additional observations from a re-analysis of the deposited data

How the results depend on the processing

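Of the 10 Polycomb genes, Ezh1, Suz12, Jarid2, Cbx2, Cbx7, Ring1 and Rnf2 kept their direction and their call under all 17 alternatives. Their log2 fold changes ranged from 0.82 to 1.09 for Ezh1, 0.28 to 0.57 for Suz12, -0.44 to -0.18 for Jarid2, 0.98 to 1.24 for Cbx2, 1.198 to 1.497 for Cbx7, 0.22 to 0.52 for Ring1 and -0.48 to -0.19 for Rnf2, with library totals at the upper end each time. Bmi1 passed under 9 of 17 (0.07 to 0.33), and Ezh2 and Eed with library totals alone (0.28 and 0.27). The 17 alternatives are not independent of each other. Among the 10 genes another transcript changed the counts of Jarid2 alone, and the 5 complete libraries also leave out EL replicate 1. The number of the 10 genes called higher was 5 to 8. It was 5 for DESeq2, for RLE factors and for a mean count of at least 50, and 5 to 6 with 1 library left out. With library totals it was 8, beside 7911 higher and 4111 lower of all 13844 genes tested. Under every alternative 2 of the 10 genes were lower. Of the 6 Polycomb-related lists 5 genes instead of 8 were lower with library totals, which shift all genes.

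For EL and PT libraries of equal replicate number, the correlations of their deviations from the group means were 0.07, 0.05 and 0.02. Those of unequal number lay between -0.09 and 0.06. With 3 libraries per group these values cannot decide whether equal numbers share a source. With the replicate block 6 of the 10 genes were higher and 2 lower, 5539 of all genes were higher and 5664 lower, and 36 genes of the Polycomb-related lists were higher and 9 lower. The 6 count ratios kept their direction with an offset of 5 and with each library left out. They also did so with another transcript, which changed the ratio of Jarid2 to Suz12 alone. Cbx7 to Cbx2 varied most in proportion, from 0.20 without EL replicate 1 to 0.29.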
